A study of Oryza sativa with 36 samples.

Results

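Flag leaves of the rice variety WFB, sampled on day 10 after flowering, were compared between a crop grown as middle rice and a crop grown as early rice. The comparison rests on 6 libraries of the 36 in the series, 3 per season, chosen by their labelled variety, day and crop. WFB is a parent of the hybrid WFYT025, whose other parent is CHT025, and the remaining 30 libraries hold both of these and WFB on day 1. All 6 libraries were RNA sequencing libraries from leaf total RNA, with no treatment named. Whether the 3 libraries of a group are from different plants is not in the labels, and the p-values cover library-to-library spread, which may be technical. The middle minus early difference takes in everything that set the crops apart, including any batch of growth, sampling or sequencing, and these cannot be told apart.

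The flag leaf is the uppermost leaf of the rice shoot and a main source of sugar for the filling grain, and on day 10 the grain is filling while the leaf is still green. As such a leaf ages, chlorophyll and photosynthetic proteins are broken down and their nitrogen is exported, mainly after ammonium is fixed again into glutamine by cytosolic glutamine synthetase. Early rice and middle rice are crops that flower at different times of the year, so temperature, light and day length can differ, but none of these was recorded in the labels.

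Levels are the FPKM values that the authors deposited (fragment counts relative to transcript length and to library total), with unknown read depth. The early and the middle libraries come from different deposited tables, and each library was scaled on its own total. The 6 libraries had FPKM sums of 552829 to 564609 and 21656 to 23274 genes above 0. Libraries of one season correlated across genes at a Pearson's r of 0.9902 to 0.9941, and libraries of different seasons at 0.9278 to 0.9363 (log2 scale). Of 17 genes annotated as chlorophyll A-B binding, the defining proteins of green leaf tissue, 16 reached 10 FPKM in at least 1 of the 6 libraries. The 43 glutelin and prolamin genes, which mark developing grain, summed to 12.9, 14.1 and 414 FPKM in the early libraries and to 108, 3.16 and 296 FPKM in the middle libraries. These grain markers therefore varied between libraries within each season, and the group ranges overlapped. The 91 genes annotated as pollen proteins summed to 130, 132 and 130 FPKM in the early libraries and to 241, 226 and 217 FPKM in the middle ones, without overlap, with 62 to 66 of them listed at 0 in each library. The part of either marker list in the results was not tested. In such bulk tissue, fewer cells of a type and less RNA per cell cannot be told apart.

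Of 18585 tested genes, 12604 (67.8%) differed between the seasons at an adjusted p under 0.05 (limma, Benjamini-Hochberg adjustment over all tested genes), the threshold for every call below. In the middle season 8856 genes were called higher (47.7%) and 3748 lower (20.2%). Differences of at least 2-fold were fewer, with 1715 genes higher (9.23%) and 435 lower (2.34%). All differences are on the log2(FPKM + 1) scale, middle minus early, on which changes of genes with low FPKM come out too small, and a value after ± beside a difference is its standard error. The median gene lay at 0.18, and the balance of calls followed the scaling: quantile normalization moved that median by 0.22 and gave 5615 genes higher (30.2%) and 6667 lower (35.9%), and median centring moved it by 0.28 and gave 5126 higher (27.6%) and 7658 lower (41.2%). After quantile normalization 1074 genes were at least 2-fold higher (5.78%) and 723 at least 2-fold lower (3.89%), so small differences near the median have no fixed direction. The 5 housekeeping genes of the lists, actin and elongation factor genes among them, were all called higher, with a median of 0.59 (3 of 5, median 0.40, after quantile normalization). The counts of each gene list below are therefore to be read against these shares of all tested genes.

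**Figure D1:**
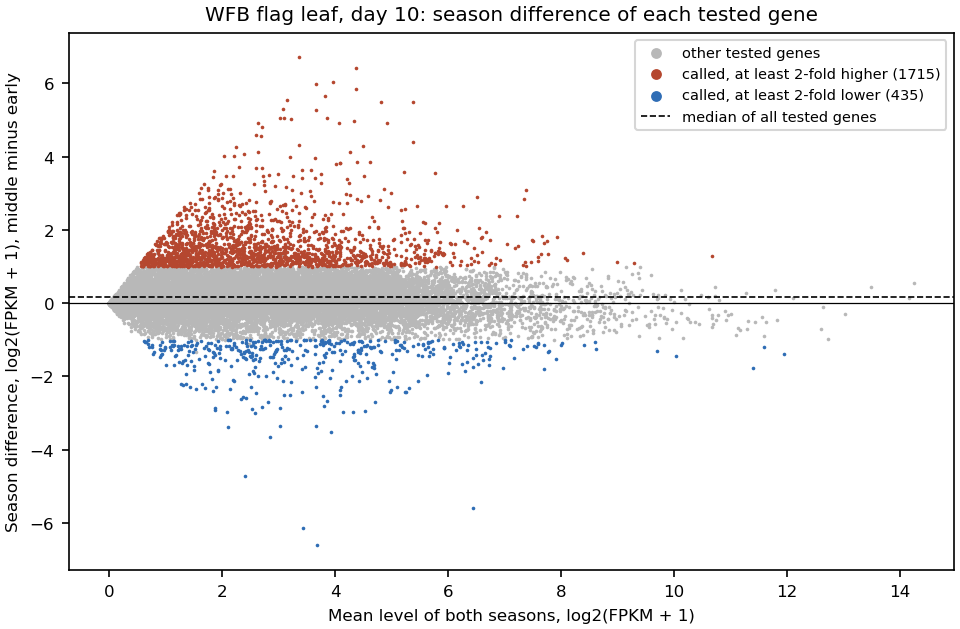
Each point is 1 of the 18585 tested genes, with its mean level over both seasons on the x axis and its middle minus early difference on the y axis, both on the log2(FPKM + 1) scale. Red and blue points are the 1715 and 435 called genes that were at least 2-fold higher or lower, and the dashed line is the median of all tested genes, 0.18.

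Genes of the phenylpropanoid pathway and of small defence proteins were among those raised most in the middle season. Phenylalanine ammonia-lyase (PAL) opens that pathway by turning phenylalanine into cinnamate, the precursor of lignin, flavonoids and salicylate. The PAL gene LOC_Os02g41630 stood at 1.09, 2.05 and 0.62 FPKM in the early libraries and at 219, 155 and 189.9 FPKM in the middle libraries. The difference was 6.43 ± 0.24 (adjusted p = 8.97e-20). The most raised genes were picked among genes whose groups do not overlap, so the separation of their groups was part of the choice. LOC_Os02g41680, also annotated as PAL, went from 0.57, 0.93 and 0.31 to 115, 84.2 and 100.4 FPKM (5.98 ± 0.16, adjusted p = 2.05e-23). All 7 PAL genes were called higher, a list put together after their values were seen, with a median of 3.81 and a range of 0.39 to 6.43. After quantile normalization 6 of the 7 were called. The PAL gene LOC_Os02g41650 was uneven, at 34.9, 39.8 and 119 FPKM in the middle libraries against 2.97, 3.09 and 2.91 in the early ones. The IDs of these PAL genes are close together and the family is closely related, so how reads were divided among them is uncertain.

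Of the 96 phenylpropanoid and flavonoid enzyme genes, 50 passed the filter on low values, and 40 of them were called higher and 4 lower, with a median of 0.62 (34 higher and 7 lower after quantile normalization). At least 2-fold differences were seen in 21 of them upward and in 1 downward. A cinnamoyl-CoA reductase gene (LOC_Os08g34280), which acts at the entry to lignin monomers, rose from 0.23 ± 0.10 to 29 ± 3.99 FPKM (mean ± SD, n = 3, 4.60 ± 0.14, adjusted p = 9.53e-22). A dehydrogenase gene, LOC_Os02g09490, which the deposited annotation links to cinnamyl alcohol, the last reduction before lignin, held 0.97, 0.77 and 1.22 FPKM in the early and 110.5, 86.6 and 103 FPKM in the middle libraries. Its difference was 5.67 ± 0.17 (adjusted p = 3.29e-22). Also among the most raised genes, an O-methyltransferase gene (LOC_Os08g06100) rose by 5.49 and an acyltransferase-type gene (LOC_Os05g19910) by 5.55. A MYB transcription factor gene (LOC_Os08g33150) rose by 5.05, from 0.36, 0.47 and 0.39 to 51.5, 41 and 45 FPKM. Whether this MYB gene acts in the phenylpropanoid pathway was not tested. The largest fall in the phenylpropanoid and flavonoid list was that of LOC_Os01g74660, annotated as dihydroflavonol reductase, an enzyme of the anthocyanin branch. It went from 25.8 ± 0.13 to 11.9 ± 1.04 FPKM (-1.06 ± 0.07, adjusted p = 5.97e-14).

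Some genes of RALF peptides and of Bet v I proteins were also among the most raised. RALF peptides are secreted signals that are read by receptor kinases at the cell surface. RALFL29 (LOC_Os10g42020) was measured at 0.84, 0.82 and 1.11 FPKM in the early libraries and at 145, 105 and 131 FPKM in the middle libraries (6.05 ± 0.18, adjusted p = 1.7e-22). RALFL28 (LOC_Os06g29730) went from 0.62, 0.43 and 0 to 59.9, 49.7 and 46.4 FPKM (5.32 ± 0.19, adjusted p = 1.68e-20). The family did not move as one: of 36 RALF genes 11 were tested, 4 were called higher and 3 lower, and RALFL14 (LOC_Os11g26880) fell from 13.7, 13.1 and 13.2 to 2.72, 2.98 and 3.0 FPKM (-1.88 ± 0.12, adjusted p = 1.36e-14). The RALF genes were grouped after their values were seen.

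Bet v I proteins form the PR10 class of pathogenesis-related proteins. LOC_Os12g36880 held 5.50, 7.81 and 2.81 FPKM in the early and 318, 223 and 274 FPKM in the middle libraries (5.49 ± 0.21, adjusted p = 7.53e-20). Neighbouring copies LOC_Os12g36830 and LOC_Os12g36850 rose by 5.06 and 5.05, and reads may have been shared among them. Of 13 Bet v I and PR10 genes, grouped after their values were seen, 8 were tested. Among these 5 were called higher, none lower and 3 were not called (4 higher and 1 lower after quantile normalization). A phytosulfokine precursor gene (LOC_Os07g03200), which encodes a peptide growth signal, rose from 5.41, 5.96 and 4.94 to 92.2, 77.9 and 109 FPKM (3.86 ± 0.19, adjusted p = 4.84e-17, chosen after its values were seen). Of 5 tested phytosulfokine precursor genes 3 were called higher and 1 lower. A glycosyl hydrolase gene (LOC_Os02g01590), which the deposited annotation places in sucrose metabolism, rose from 0.98, 1.04 and 1.08 to 85.8, 74 and 73.5 FPKM (5.27 ± 0.08, adjusted p = 1.9e-28).

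Among the 12 most raised genes, 11 had their highest middle value in the same library, the first, and 9 had their lowest in the second, so within the season these genes also moved together from library to library. The gene with the largest fitted difference, a chaperonin (LOC_Os06g09688), is a separate case. It was listed at 0 in all 3 early libraries and at 99.5, 111 and 103 FPKM in the middle ones, and no fold is given. Across the 36 libraries it was listed at 0 in 30 and at 69.2 FPKM or more in the other 6, single libraries of other groups included. LOC_Os06g09679 nearby has the same annotation and stood at 80.8, 77.9 and 74.5 FPKM in the early and 164, 176 and 154 FPKM in the middle libraries, so the values of both are uncertain.

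**Figure D2:**
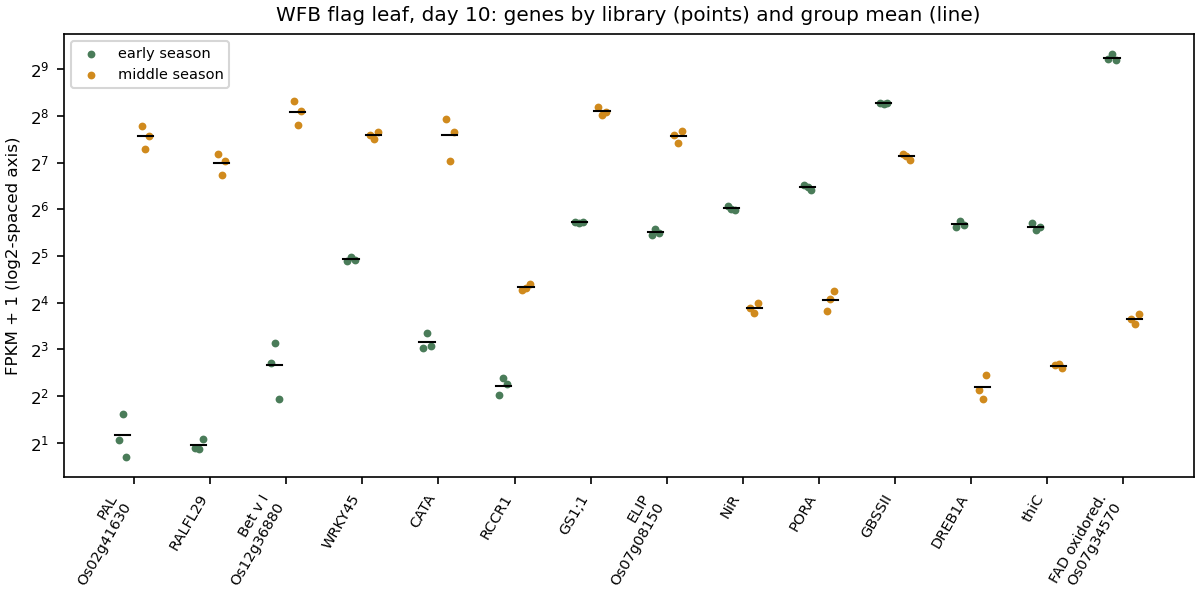
The y axis gives FPKM + 1 on a log2-spaced axis for 14 genes, with 1 point per library (green for the early and orange for the middle season) and a line at the group mean. The 8 genes on the left, from PAL to an early light-induced protein (ELIP), were higher in all 3 middle libraries than in any early library, and the 6 on the right were lower.

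Further defence lists leaned the same way. Of 94 genes of pathogenesis-related proteins 43 were tested, 26 higher and 4 lower, with a median of 0.51 (17 higher and 8 lower after quantile normalization). An exception among them was the chitinase gene CHIT1 (LOC_Os02g39330), which fell from 50.8 ± 3.77 to 12.6 ± 1.25 FPKM (-1.93 ± 0.16, adjusted p = 1.16e-11). Wall-associated and DUF26 receptor kinases, which sense the cell wall and extracellular signals, had 92 tested genes of 210, of which 59 were higher and 11 lower with a median of 0.47 (46 and 17 after quantile normalization). The wall-associated kinase LOC_Os11g46900 rose from 2.76, 2.30 and 2.77 to 105, 120.4 and 114 FPKM (4.98 ± 0.07, adjusted p = 1.77e-30), and OsWAK60 (LOC_Os04g30240) rose by 3.63. The DUF26 kinase LOC_Os07g43570 fell from 147 ± 3.18 to 54.4 ± 3.59 FPKM (-1.42 ± 0.05, adjusted p = 1.29e-19). Intracellular immune receptors of the NB-ARC type showed smaller differences: 54 of 96 tested genes were higher and 7 lower, with a median of 0.30 that fell to 0.05 after quantile normalization.

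WRKY factors are plant transcription factors with many roles in defence and senescence. Of 104 genes 62 were tested, and 32 were called higher and 15 lower (24 and 20 after quantile normalization). These shares, 51.6% and 24.2%, lay near the 47.7% and 20.2% of all tested genes, so no lean of the family is read from them. At least 2-fold differences were seen in 14 upward and in 5 downward, beside 9.23% and 2.34% of all tested genes. WRKY45 (LOC_Os05g25770), a regulator of salicylate-dependent defence in rice, rose from 28.6, 30.5 and 29.2 to 190.5, 181 and 200.2 FPKM (2.65 ± 0.10, adjusted p = 6e-20). The 3 libraries of each season lay close together. WRKY9 (LOC_Os01g18584) rose by 3.54 and WRKY62 (LOC_Os09g25070) by 2.71. Falls were measured for WRKY15 (LOC_Os01g46800), from 32.2 ± 0.91 to 4.77 ± 0.57 FPKM (-2.53 ± 0.14, adjusted p = 7.33e-16), for WRKY24 (LOC_Os01g61080, -2.04) and for WRKY74 (LOC_Os09g16510, -1.53).

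Genes of diterpenoid phytoalexin synthesis, antimicrobial compounds of rice that include momilactones and phytocassanes, were grouped after their values were seen. Of 8 such genes 6 were tested and all 6 were called at least 2-fold higher. CPS4 (LOC_Os04g09900), which makes the precursor of the momilactones, went from 0.05, 0 and 0.03 to 14.9, 8.27 and 12.6 FPKM (3.62 ± 0.15, adjusted p = 3.28e-19). The P450 genes CYP99A2 (LOC_Os04g10160) and CYP99A3 (LOC_Os04g09920), of the same cluster, rose by 3.14 and 2.35. From the phytocassane cluster, CPS2 (LOC_Os02g36210) and KSL7 (LOC_Os02g36140) rose by 1.54 and 1.36 and CYP71Z7 (LOC_Os02g36190) by 3.24. In CHT025 on day 10 the season difference of CPS4 was 0.07 and that of CYP99A2 was 0.35. In the whole cytochrome P450 family 155 of 318 genes were tested, 96 of them higher and 23 lower with a median of 0.45 (77 and 42 after quantile normalization), 48 of them at least 2-fold higher and 5 at least 2-fold lower.

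Enzymes that handle reactive oxygen and foreign or damaged molecules were also raised. Of 78 glutathione S-transferase genes 46 were tested, 32 higher and 7 lower with a median of 0.64 (30 and 11 after quantile normalization). LOC_Os10g38780 rose from 1.30 ± 0.33 to 35.8 ± 3.50 FPKM (4.0 ± 0.13, adjusted p = 1.81e-21) and LOC_Os01g72130 from 4.71 ± 0.40 to 58.7 ± 1.41 FPKM (3.39 ± 0.11, adjusted p = 7.26e-22). The abundant LOC_Os03g63360 fell from 246 ± 2.34 to 129 ± 3.72 FPKM (-0.93 ± 0.03, adjusted p = 5.79e-20).

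Of 6 antioxidant enzyme genes 5 were higher and 1 lower. Catalase A (CATA, LOC_Os02g02400), which removes hydrogen peroxide, stood at 7.14, 9.24 and 7.38 FPKM in the early and at 244, 129 and 200.1 FPKM in the middle libraries (4.39 ± 0.26, adjusted p = 4.08e-15). The middle libraries were spread widely, but none came near the early ones. Catalase B (CATB, LOC_Os06g51150) rose by 1.97 and the cytosolic ascorbate peroxidase APX1 (LOC_Os03g17690) by 1.70, from 42.1 ± 3.57 to 139 ± 6.05 FPKM. The thylakoid ascorbate peroxidase APX8 (LOC_Os02g34810) fell by 0.43. On day 1 the season difference of CATA had the opposite sign, -4.91 (adjusted p = 7.81e-17).

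Small heat shock proteins bind unfolding proteins, and 15 of their 29 genes were tested. In the middle season 10 were called higher and none lower, with a median of 0.93 (10 higher and 1 lower after quantile normalization). LOC_Os01g04350 rose from 4.36, 5.70 and 5.29 to 56.9, 57.6 and 61 FPKM (3.29 ± 0.09, adjusted p = 1.91e-23), LOC_Os03g16040 by 2.69 and LOC_Os03g15960 by 2.62. Heat shock factors, the transcription factors of this response, showed no common direction, with 10 of 19 tested genes higher and 6 lower, and LOC_Os02g32590 fell from 37.8 ± 0.31 to 6.48 ± 0.61 FPKM (-2.38 ± 0.07, adjusted p = 1.18e-22). Larger chaperones were called higher in 65 of 112 tested genes and lower in 24 (49 and 35 after quantile normalization). These shares were 58.0% and 21.4%, beside 47.7% and 20.2% of all tested genes. Of 15 tested universal stress protein genes 11 were higher and none lower with a median of 0.88 (10 and none after quantile normalization), and LOC_Os02g47650 rose the most, by 2.25.

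Genes of the light reactions were lower in the middle season. Of 76 light-harvesting and photosystem genes 67 were tested, 47 called lower and 5 higher, with a median of -0.51 (43 lower and 5 higher after quantile normalization), against 20.2% lower among all tested genes. The 17 chlorophyll A-B binding genes summed to 42307, 44468 and 41590 FPKM in the early libraries and to 26290, 26392 and 27555 FPKM in the middle ones, without overlap. LOC_Os04g38410, a chlorophyll A-B binding protein, fell from 1286, 1329 and 1288 to 533, 508 and 549 FPKM (-1.30 ± 0.05, adjusted p = 2.42e-20). Another member, LOC_Os04g59440, rose from 22 ± 2.39 to 76.5 ± 3.05 FPKM (1.76 ± 0.11, adjusted p = 5.11e-15). Some members, such as LOC_Os04g16866 (-1.27) and LOC_Os10g21406 (-1.22), carry names of proteins that the chloroplast genome encodes, and reads of chloroplast transcripts could not be told apart from those of such nuclear copies.

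Early light-induced proteins (ELIPs), relatives of the light-harvesting proteins that protect against excess light, moved the other way. The 3 tested genes of 6 were all called at least 2-fold higher. LOC_Os07g08150 stood at 42.8, 46.9 and 44.2 FPKM in the early and 191, 171 and 204 FPKM in the middle libraries (2.05 ± 0.06, adjusted p = 1.19e-22), and LOC_Os01g14410 and LOC_Os07g08160 rose by 1.73 and 1.11. On day 1 the season differences of these 3 genes were 8.10, 5.76 and 8.81, each larger than on day 10 by the test of that difference (highest adjusted p = 2.83e-25).

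The Rubisco genes divided. The small-subunit gene RBCS2 (LOC_Os12g17600), part of the enzyme that fixes carbon dioxide, fell from 6555, 6651 and 5886 to 2382, 2464 and 2479 FPKM (-1.38 ± 0.05, adjusted p = 1.53e-20; -0.75 after quantile normalization, which moves the most abundant genes). RBCS5 (LOC_Os12g19470) fell by 0.33. RBCS3 (LOC_Os12g19381) held 4239, 4190.4 and 4189.6 FPKM in the early and 4417, 4817 and 4650.2 FPKM in the middle libraries, a difference of 0.14 ± 0.03 whose sign turned to -0.14 under median centring. Rubisco activase (RCA, LOC_Os11g47970), the helper that frees the enzyme's active site, rose from 16333, 15213 and 16190 to 23473, 22779 and 23836 FPKM (0.55 ± 0.04, adjusted p = 1.6e-12). The small-subunit genes are near copies, so the division of reads between them is uncertain.

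Most genes of chlorophyll synthesis were lower. Of 15 genes 14 were tested, 10 called lower and 3 higher, with a median of -0.39 (10 and 2 after quantile normalization). PORA (LOC_Os04g58200), the light-dependent enzyme that makes chlorophyllide, fell from 90.1, 88.1 and 84.2 to 13.2, 15.9 and 17.9 FPKM (-2.42 ± 0.11, adjusted p = 3.4e-18). Its relative PORB (LOC_Os10g35370), which is more abundant in green leaves, fell from 225 ± 7.20 to 135 ± 5.62 FPKM (-0.73 ± 0.05, adjusted p = 1.27e-14). The magnesium chelatase subunits CHLH (LOC_Os03g20700), CHLI (LOC_Os03g36540) and CHLD (LOC_Os03g59640), which commit the pathway to chlorophyll, fell by 0.49, 0.42 and 0.16. CHLM (LOC_Os06g04150), which methylates the next intermediate, fell by 0.63, and the chlorophyll synthase CHLG (LOC_Os05g28200) by 0.69. CRD1 (LOC_Os01g17170), the cyclase of the chlorophyll ring, went the other way, from 849 ± 17 to 985 ± 21.3 FPKM (0.21 ± 0.03, adjusted p = 3.99e-07), with a sign that turned to -0.06 under median centring.

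Chlorophyll breakdown genes were all higher. The 7 members were called higher with a median of 0.70, 5 of them after quantile normalization with none lower, and 4 after median centring with 1 lower. The stay-green protein SGR (LOC_Os09g36200), which removes magnesium from chlorophyll, rose from 6.35, 5.97 and 6.01 to 24.1, 22.3 and 22 FPKM (1.74 ± 0.08, adjusted p = 2.38e-17). Pheophorbide a oxygenase (PAO, LOC_Os03g05310), which opens the ring, rose from 41.5 ± 1.52 to 68.2 ± 2.07 FPKM (0.70 ± 0.04, adjusted p = 5.66e-16). RCCR1 (LOC_Os10g25030), the reductase of the following step, went from 3.05, 4.20 and 3.78 to 18.4, 18.8 and 20.2 FPKM (2.11 ± 0.10, adjusted p = 3.35e-17). The NAC factor NAP (LOC_Os03g21060), a promoter of leaf senescence in rice, rose from 15.1, 15.4 and 14.6 to 45.1, 45.3 and 49.6 FPKM (1.57 ± 0.08, adjusted p = 5.3e-17). The chlorophyll b reductases NYC1 (LOC_Os01g12710) and NOL (LOC_Os03g45194) differed by only 0.07 ± 0.03 and 0.27 ± 0.09, with signs that turned to -0.06 and -0.01 after quantile normalization. The call of NYC1 (adjusted p = 0.0482) was lost on leaving out any of 5 of the 6 libraries, at log2 differences of 0.06 to 0.07, and that of NOL without the third middle library, at 0.20.

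Ribosomal protein genes separated by compartment. For the cytosolic ribosome 125 of 134 genes were tested, and 91 were called higher and 1 lower with a median of 0.35 (52 and 10 after quantile normalization, 35 and 18 after median centring). Their summed level was 3370 to 3722 FPKM in the early libraries and 4404 to 4528 FPKM in the middle ones. For the ribosomes of chloroplasts and mitochondria 38 of 75 tested genes were lower and 12 higher with a median of -0.35 (47 and 5 after quantile normalization). Here the summed levels overlapped, at 1473 to 1545 FPKM in the early and 1492 to 1517 FPKM in the middle libraries.

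**Figure D3:**
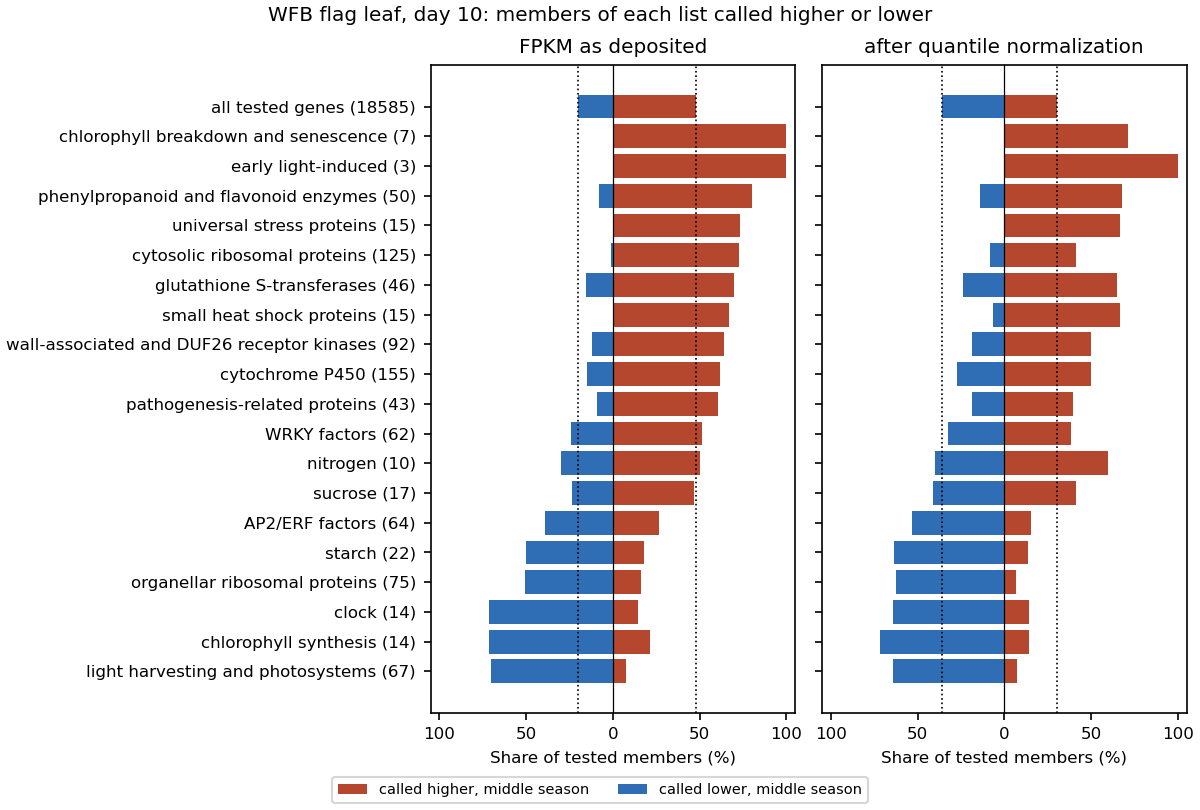
Bars give the share of tested members of each list that were called higher (red, to the right) or lower (blue, to the left) in the middle season, with the number tested in brackets, for the deposited FPKM and after quantile normalization. Dotted lines mark the shares over all tested genes, 47.7% and 20.2% on the deposited scale, and the photosynthesis, chlorophyll synthesis, clock and starch lists lie to the left in both panels.

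Starch genes were lower more often than higher. Of 23 genes 22 were tested, 11 lower and 4 higher with a median of -0.24 (14 and 3 after quantile normalization). The leaf form of granule-bound starch synthase, GBSSII (LOC_Os07g22930), which makes amylose, fell from 308, 305 and 310.3 to 145, 139.7 and 132 FPKM (-1.14 ± 0.07, adjusted p = 2.38e-14). Soluble starch synthases SSI (LOC_Os06g06560), SSIIb (LOC_Os02g51070) and SSIIIb (LOC_Os04g53310) fell by 0.75, 0.73 and 0.45. The branching enzyme BEIIa (LOC_Os04g33460) fell by 0.65, and AGPL3 (LOC_Os03g52460), a subunit of the enzyme that makes ADP-glucose, fell by 0.59. Genes that break starch down fell as well: DPE2 (LOC_Os07g46790), which uses maltose, from 71.2, 63.3 and 71.2 to 31, 30.4 and 30.3 FPKM (-1.14 ± 0.05, adjusted p = 3.86e-18), and the glucan water dikinase GWD1 (LOC_Os06g30310) from 115 ± 9.31 to 65.1 ± 2.11 FPKM (-0.81 ± 0.05, adjusted p = 7.56e-14). AGPL2 (LOC_Os01g44220) rose by 0.77. The grain isoforms GBSSI (LOC_Os06g04200) and BEIIb (LOC_Os02g32660) stayed below 5 FPKM and had their highest value in the third library of each season, where the glutelin and prolamin sums were also highest. AGPL4 (LOC_Os07g13980) was listed at 31.8, 33.6 and 0 FPKM in the early and 26.3, 24.6 and 0 FPKM in the middle libraries, and no difference is read from it.

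Sucrose genes showed no common direction. Of 20 genes 17 were tested, 8 higher and 4 lower with a median of 0.04 (7 and 7 after quantile normalization). The list does not hold the glycosyl hydrolase gene LOC_Os02g01590, which the deposited annotation places in sucrose metabolism and which rose by 5.27. Sucrose-phosphate synthase SPS1 (LOC_Os01g69030), the main enzyme of sucrose synthesis in leaves, measured 71, 63.6 and 73.2 FPKM in the early and 68, 68.4 and 68.7 FPKM in the middle libraries, with overlapping groups (-0.02 ± 0.04, adjusted p = 0.782); it was called lower at -0.11 after quantile normalization and -0.29 after median centring. SPS11 (LOC_Os11g12810) fell by 0.59 and the cytosolic fructose-bisphosphatase cFBP1 (LOC_Os01g64660), which feeds sucrose synthesis, fell from 254 ± 7.15 to 174 ± 8.22 FPKM (-0.55 ± 0.04, adjusted p = 1.15e-12). Sucrose synthase SUS2 (LOC_Os06g09450), which splits sucrose, rose from 11.1, 12.9 and 11.8 to 31.2, 30.9 and 29.9 FPKM (1.29 ± 0.06, adjusted p = 2.55e-18). The sucrose transporter SUT1 (LOC_Os03g07480), which loads sucrose into the phloem, rose from 2.86 ± 0.42 to 5.76 ± 0.54 FPKM (0.81 ± 0.09, adjusted p = 1.43e-09).

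Nitrogen assimilation genes divided between the entry and the recycling steps. Nitrite reductase (NiR, LOC_Os01g25484), which turns nitrite into ammonium in the chloroplast, fell from 66, 62.8 and 62.5 to 13.7, 12.8 and 15 FPKM (-2.13 ± 0.07, adjusted p = 4.28e-21). The nitrate reductases NIA1 (LOC_Os08g36480) and NIA2 (LOC_Os08g36500) fell from 77.4 ± 4.35 to 41.8 ± 1.81 FPKM (-0.87 ± 0.05, adjusted p = 9.26e-15) and from 44.5 ± 0.44 to 22.1 ± 0.79 FPKM (-0.98 ± 0.05, adjusted p = 8.87e-17). Cytosolic glutamine synthetase GS1;1 (LOC_Os02g50240), which reloads ammonium for export, rose from 51.8, 51.4 and 51.7 to 291, 257 and 272 FPKM (2.38 ± 0.05, adjusted p = 2.44e-26). The other cytosolic leaf form, GS1;2 (LOC_Os03g12290), had overlapping groups at 10.6 ± 0.28 and 10.6 ± 0.72 FPKM, and chloroplast GS2 (LOC_Os04g56400), which captures ammonium of photorespiration, also overlapped at 1017 ± 12 and 1031 ± 12.4 FPKM. GS1;2 was called lower at -0.27 under both rescalings, and GS2 was called at 0.22 after quantile normalization and -0.26 after median centring. NADH-dependent glutamate synthases, which pair with cytosolic glutamine synthetase, rose: NADH-GOGAT1 (LOC_Os01g48960) by 1.12 and NADH-GOGAT2 (LOC_Os05g48200) by 1.18, from 3.52 ± 0.05 to 9.23 ± 0.38 FPKM. The ammonium transporter AMT1;1 (LOC_Os04g43070) rose by 0.64. In all, 10 of 12 genes were tested, with 5 higher and 3 lower.

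Most clock genes were lower in the middle season, with an exception at the morning component. The plant circadian clock is a loop in which LHY, a MYB factor of the early day, and the pseudo-response regulators (PRR) and evening genes repress each other in turn. Of 14 clock genes 10 were called lower and 2 higher with a median of -0.32 (9 and 2 after quantile normalization). LHY (LOC_Os08g06110) measured 394, 368 and 394 FPKM in the early and 400.1, 387 and 368 FPKM in the middle libraries, with overlapping groups (0.00 ± 0.04, adjusted p = 0.986). It was called in opposite directions by the rescalings, at 0.14 after quantile normalization and -0.28 after median centring. PRR95 (LOC_Os09g36220) fell from 296, 269 and 286 to 122, 126 and 122 FPKM (-1.20 ± 0.04, adjusted p = 1.76e-21), and PRR59 (LOC_Os11g05930) from 33.3, 31.3 and 33.5 to 12.3, 12.5 and 12.3 FPKM (-1.33 ± 0.06, adjusted p = 1.44e-18). Both PRR genes had tight, separate groups. PRR1 (LOC_Os02g40510), the evening member of the family, fell by 0.97 and PRR37 (LOC_Os07g49460) by 0.43, while PRR73 (LOC_Os03g17570) overlapped between seasons (-0.15 ± 0.07, adjusted p = 0.0486), with a call lost on leaving out any of 4 of the 6 libraries (the first and the second early, the first and the third middle); over all 6 the difference ran from -0.22 to -0.08. GIGANTEA (GI, LOC_Os01g08700), a link from the clock to flowering, fell from 362, 255 and 289.6 to 200.4, 195 and 159.6 FPKM (-0.70 ± 0.11, adjusted p = 1.9e-06). ELF4a (LOC_Os11g40610) fell by 1.09 and FKF1 (LOC_Os11g34460), a blue-light receptor, fell from 2.80, 2.98 and 3.17 to 0.25, 0.27 and 0.19 FPKM. ELF3-1 (LOC_Os06g05060), a partner of ELF4 in the evening complex, rose from 35.1 ± 2.26 to 47.4 ± 1.56 FPKM (0.42 ± 0.05, adjusted p = 6.26e-09). The labels give no hour of sampling, so a difference in the time of day at harvest and a difference in the clock cannot be told apart. On day 1 LHY did differ between seasons, by 4.46 (adjusted p = 1.32e-35), from 23.7 ± 0.35 to 541 ± 9.81 FPKM.

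**Figure D4:**
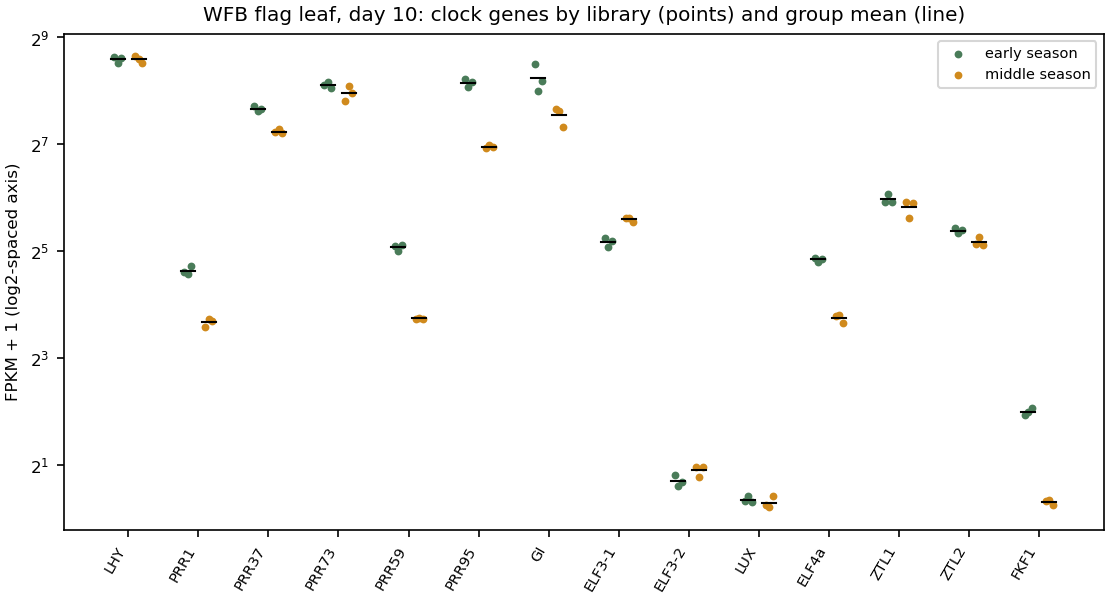
The y axis gives FPKM + 1 on a log2-spaced axis for the 14 clock genes, with 1 point per library (green for the early and orange for the middle season) and a line at the group mean. LHY overlaps between seasons near 385 FPKM, while PRR1, PRR59, PRR95, ELF4a and FKF1 are lower in every middle library.

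Of 18 flowering-time and photoreceptor genes 15 were tested, 8 higher and 2 lower, a balance that turned to 3 and 5 after quantile normalization. The florigen gene Hd3a (LOC_Os06g06320), which encodes a mobile signal made in leaves, rose from 22.3 ± 1.66 to 36 ± 1.85 FPKM (0.67 ± 0.08, adjusted p = 4.15e-08). In CHT025 on day 10 its season difference was -0.40.

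The most lowered genes included enzymes of thiamine synthesis and cold-response factors. LOC_Os07g34570, annotated as an FAD-dependent oxidoreductase and assigned to thiamine and thiazole synthesis in the deposited annotation, fell from 594, 641 and 586 to 11.6, 10.6 and 12.4 FPKM (-5.60 ± 0.13, adjusted p = 1.65e-24). The thiC gene (LOC_Os03g47610), which makes the other portion of the thiamine molecule, the pyrimidine, fell from 51.2, 46 and 48.2 to 5.34, 5.42 and 5.03 FPKM (-2.98 ± 0.06, adjusted p = 1.61e-25). A transketolase-annotated gene (LOC_Os05g33840), whose product the deposited annotation gives as deoxyxylulose phosphate, a precursor of thiazole and of terpenoids, fell by 2.28. The rest of the 16 genes assigned to thiamine metabolism did not follow: 8 were higher and 5 lower in all, a list made after its values were seen. On day 1 the same genes were also lower in the middle season, with differences of -10.67 for LOC_Os07g34570 and -6.19 for thiC.

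DREB1 factors of the AP2 family switch on genes of cold tolerance. DREB1A (LOC_Os09g35030) fell from 47.9, 52.8 and 49.9 to 3.35, 2.82 and 4.48 FPKM (-3.51 ± 0.15, adjusted p = 1.9e-18). DREB1G (LOC_Os02g45450) fell from 24.9, 26.7 and 27.2 to 0.04, 0.05 and 0 FPKM (-4.73 ± 0.12, adjusted p = 9.63e-24), and DREB1H (LOC_Os09g35020) from 9.81, 11.1 and 11.7 to 0.21, 0.76 and 0.65 FPKM (-2.96 ± 0.13, adjusted p = 1.25e-18). The 5 DREB1 genes listed here, a grouping made after the values were seen, were all lower. The other 2 differed by -1.12 for DREB1B (LOC_Os09g35010) and -1.03 for DREB1C (LOC_Os06g03670). The list may not hold the whole DREB1 family. In the list of cold and drought response factors 3 of 4 genes were called lower and 1 was not called. In the AP2 and ERF family as a whole 64 of 141 genes were tested, with 25 lower and 17 higher (34 and 10 after quantile normalization), and 9 were at least 2-fold lower. The AP2 genes LOC_Os08g36920 and LOC_Os09g11480 fell from 25 ± 1.18 to 1.55 ± 0.25 FPKM and from 39.5 ± 0.94 to 2.99 ± 0.20 FPKM.

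The abscisic acid and jasmonate lists held genes of both directions. Of 8 abscisic acid genes 3 were higher and 4 lower with a median of -0.04 (2 and 4 after quantile normalization). ABA8OX1 (LOC_Os02g47470), which breaks down abscisic acid, fell from 37.2, 39.1 and 34.2 to 7.31, 5.77 and 7.42 FPKM (-2.28 ± 0.12, adjusted p = 1.44e-16). NCED5 (LOC_Os12g42280), which makes its precursor, fell by 1.31, while the far more abundant NCED1 (LOC_Os02g47510) rose from 1440 ± 25.4 to 1972 ± 73.1 FPKM (0.45 ± 0.05, adjusted p = 1.92e-09). The jasmonate list held 14 higher and 4 lower of 23 tested (10 and 6 after quantile normalization). At least 2-fold differences were seen in 4 upward and in 2 downward. ZIM-domain repressors of jasmonate signalling were not counted apart from the rest of the list. The lowered genes included 3 of these repressors, LOC_Os10g25230 (-2.44 ± 0.14), LOC_Os03g08330 (-1.20 ± 0.16) and LOC_Os10g25290 (-0.66 ± 0.22). The day 1 season differences of these 3 genes were 6.11, 7.0 and 6.67, of opposite sign. The call of LOC_Os10g25290 was lost without the third early library, at -0.56 with an adjusted p of 0.05.

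Transporters and a NAC factor were also among the most lowered. An amino acid permease gene (LOC_Os01g71720) fell from 63.1, 65.4 and 61.5 to 7.17, 7.71 and 7.04 FPKM (-2.95 ± 0.06, adjusted p = 7.91e-26) and a MATE efflux gene (LOC_Os04g48290) from 25.3, 23.2 and 24.9 to 0.94, 1.08 and 1.09 FPKM (-3.64 ± 0.09, adjusted p = 4.68e-24). The NAC gene LOC_Os01g64310 fell by 2.90, the P450 gene LOC_Os11g05380 by 3.39 and CPuORF26 (LOC_Os05g47540), a transcript with a conserved upstream reading frame, by 2.87. Phosphate genes split, with 9 of 17 tested lower and 6 higher: the transporter LOC_Os03g05620 rose by 2.09, and the SPX-domain gene LOC_Os02g10780, of a family that senses phosphate, fell by 1.28.

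The design asks whether these season differences held on day 1 and in the other genotypes, whose libraries are separate. Of the 1715 genes at least 2-fold higher in WFB on day 10, 1343 (78.3%) were called higher in CHT025 on day 10 as well, where 48.3% of all tested genes were, and 80 (4.66%) were called lower. In WFYT025 on day 10 1162 of them (67.8%) were called higher, against 38.6% of all tested genes, and 242 (14.1%) lower. On day 1 in WFB 936 (54.6%) were called higher, against 33.2%, and 424 (24.7%) lower. Genes at least 2-fold higher in both were 504 for CHT025, 29.4% of the WFB genes and 52.1% of the 967 in CHT025, which are 5.2% of all tested genes. Of the 435 genes at least 2-fold lower, 248 (57.0%) were called lower in CHT025, against 15.9% of all tested genes, and 83 (19.1%) higher. In WFYT025 215 (49.4%) were called lower, against 25.2%, and 138 (31.7%) higher. In WFB day 1 leaves 223 of the 435 (51.3%) were called lower, against 45.2% of all tested genes, and 168 (38.6%) were called higher.

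The season difference itself changed between day 1 and day 10 for 14373 genes (77.3%). It differed between WFB and CHT025 for 9280 genes (49.9%) and between WFB and WFYT025 for 10813 genes (58.2%), each by the test of that difference. The labels give no hour of sampling, so differences in hour between groups and differences by day or genotype cannot be told apart. Phenylpropanoid genes of the most raised set were called higher in the other genotypes on day 10 too. The PAL gene LOC_Os02g41630 differed by 4.69 in CHT025 and by 4.92 in WFYT025, beside 6.43 in WFB, and by -0.69 in WFB on day 1. That fall was an exception: of the 12 most raised genes 10 were called higher in WFB on day 1 and 1 lower. Of all tested genes 33.2% were called higher there. Another of the most raised genes, the MYB factor gene LOC_Os08g33150, differed by 3.92 and 4.18 on day 10 and by 0.34 in WFB on day 1. Chlorophyll breakdown genes were likewise called higher on day 10, 7 of 7 in CHT025 and 6 of 7 in WFYT025, against 48.3% and 38.6% of all tested genes. In WFB on day 1 5 were higher and 2 lower. Light-harvesting and photosystem genes were called lower for 53 and 43 of 67, against 15.9% and 25.2% of all tested genes. In WFB on day 1 36 of the 67 were lower, against 45.2%.

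Cytosolic ribosomal proteins stood apart from this pattern. In WFB on day 10 91 of 125 genes were higher, but 82 were lower and 6 higher in CHT025, 96 lower and 5 higher in WFYT025, and 108 lower and 2 higher in WFB on day 1. The season difference was called more positive in WFB on day 10 than in CHT025 for 102 of the 125, against 25.7% of all tested genes. It was more positive than in WFYT025 for 111, against 35.6%, and than on day 1 for 120, against 53.5%, with none more negative in these 3 tests (24.2%, 22.6% and 23.9% of all tested genes). Clock genes differed too: the median season difference of the 14 genes was -0.32 in WFB on day 10, -0.10 in CHT025, -0.13 in WFYT025 and -1.41 in WFB on day 1. For PRR95 the 4 values were -1.20, -0.03, 0.39 and -2.88, and its difference from CHT025 was -1.17 (adjusted p = 8.06e-17). NiR, at -2.13 in WFB on day 10, differed by 0.35 in CHT025 and by -0.13 in WFYT025, and the difference between WFB and CHT025 was -2.48 (adjusted p = 3.02e-18).

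The DREB1 genes turned direction with day and genotype. DREB1A differed by -3.51 in WFB on day 10, by 0.51 on day 1, by 0.04 in CHT025 and by 1.27 in WFYT025. For DREB1G the same values were -4.73, 3.12, 0.24 and 2.87. In WFYT025 on day 10 all 5 listed DREB1 genes were called higher in the middle season, and in CHT025 1 was.

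**Figure D5:**
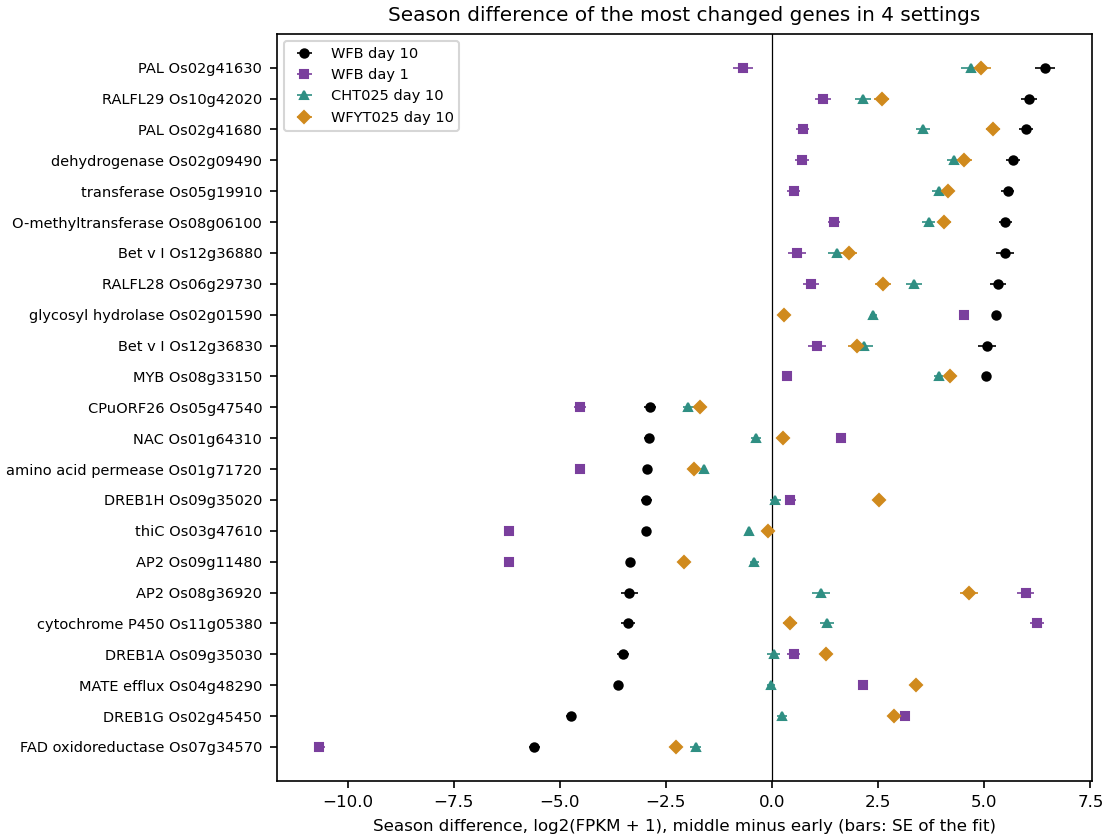
Each row is 1 of the 23 genes named for the largest differences (the chaperonin listed at 0 in the early season is left out), and the x axis gives its middle minus early difference on the log2(FPKM + 1) scale, with the standard error, for WFB day 10 (black), WFB day 1 (purple), CHT025 day 10 (teal) and WFYT025 day 10 (orange). The most raised genes lie to the right of 0 in all 3 genotypes on day 10. Of the 12 most raised, the chaperonin included, 10 were called higher in WFB on day 1 and 1 lower. Of the 12 most lowered genes, 7 were called higher in WFB on day 1 and 5 lower. In WFYT025 on day 10 7 of these 12 were called higher and 4 lower, and in CHT025 2 higher and 6 lower.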

How the data were processed

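RNA sequencing of WFB flag leaves on day 10 gave 3 libraries per season, grouped by their labels. Per the file headers, the values the authors deposited are FPKM, 1 column per library; the submitters' processing notes name HISAT, StringTie and edgeR, without versions; build and annotation, not given in the sources used here, and read depth stay unknown. Tables were joined on gene ID (34623 genes common to all, broken and repeated lines of 1 table dropped). The 18585 genes that reached 1 FPKM in 3 or more of the 36 libraries were fitted as log2(FPKM + 1) with limma 3.58.1 (R 4.3.3): 12 group means, an intensity trend, moderated two-sided tests, Benjamini-Hochberg adjustment, calls at an adjusted p under 0.05. On simulated data with 100 genes changed at each size among 18585, 84% of 1.5-fold and 98% of 2-fold changes were called, with 12 false calls. That simulation changed few genes and gave each gene independent noise, while 67.8% of genes were called in the real data. Its rates therefore do not give the false calls of the real data. Named genes are the 12 largest rises and 12 largest falls among called, non-overlapping, annotated genes with a group mean of at least 10 FPKM, members with known roles in the pathway lists, and up to 3 called members each way in other lists; others are said to be chosen later. The lists and genes were chosen with earlier results of these data known, and 3 gene IDs whose annotation went against their name were dropped. List membership follows the deposited annotation text or rice gene nomenclature. Alternatives were another pseudocount, 2 filters, quantile normalization, median centring, fewer libraries in the fit, each of the 6 libraries left out, and the replicate number as a block. Promoter motifs were not analysed here, and 1 gene is not reported here. Tables were handled in pandas 2.3.3 under Python 3.11.15 and plotted with matplotlib 3.10.9.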

Additional observations from a re-analysis of the deposited data

Results flagged for a closer look

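The season difference of WFB depended on the day for 14373 genes, and on day 10 it differed from that of CHT025 for 9280 genes and from that of WFYT025 for 10813 genes, each by the test of the difference itself (limma, adjusted over all tested genes). All 3 contrasts share the same 6 WFB libraries of day 10. The hour of sampling of each group is not in the labels and cannot be told apart from the day or the genotype.

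Among the genes with the largest day 10 differences, 8 were also called in the opposite direction in another setting. For the phenylalanine ammonia-lyase gene LOC_Os02g41630 the difference on day 10 lay 7.11 above that on day 1 (log2 scale). For DREB1G (LOC_Os02g45450), a cold-response factor, it lay at -7.85 relative to day 1 and at -7.59 relative to WFYT025. The related factors DREB1A (LOC_Os09g35030) and DREB1H (LOC_Os09g35020) gave -4.02 and -3.39 relative to day 1, and -4.78 and -5.48 relative to WFYT025. LOC_Os08g36920, an AP2 domain gene, gave -9.32 relative to day 1, -4.51 relative to CHT025 and -8.0 relative to WFYT025. LOC_Os11g05380, a cytochrome P450 gene, gave -9.63, -4.68 and -3.81 against the same settings. LOC_Os04g48290, a MATE efflux gene, gave -5.79 relative to day 1 and -7.03 relative to WFYT025, and LOC_Os01g64310, a NAC domain gene, gave -4.53 and -3.16. Single outlying libraries were not tested for in these groups of 3.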

How the results depend on the processing

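Both the scaling and the pseudocount moved the counts. As deposited, 8856 genes were higher and 3748 lower, 1715 and 435 of them at least 2-fold. Quantile normalization gave 5615 and 6667, with 1074 and 723 at least 2-fold; median centring gave 5126 and 7658, with 1032 and 859. A pseudocount of 0.1 gave 2857 genes at least 2-fold higher and 827 lower. The cause of these shifts was not tested, apart from the smaller pseudocount raising the fold of low genes by construction. Leaving out each of the 6 libraries in turn gave 8458 to 8645 higher, 3489 to 3583 lower, 1677 to 1755 at least 2-fold higher and 426 to 447 at least 2-fold lower. The genes whose difference depended on the day numbered 14052 to 14184, and those that differed from CHT025 and WFYT025 8794 to 8989 and 10356 to 10563. Other filters and fits with fewer libraries kept every one of these counts within 1.5 times.

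Whether the replicate numbers pair the libraries is not known. The correlations of same-numbered deviations were 0.02, 0.15 and 0.35, and the first early library correlated best with the second middle one (0.22). Deviations from a mean of 3 libraries depend on each other, so these values cannot settle it. With the replicate number as a block, 8781 genes were higher and 3725 lower, 1715 and 435 of them at least 2-fold, and 14330, 9111 and 10675 genes differed by day, from CHT025 and from WFYT025. Of the named genes only NYC1 lost its call under the block, and of the gene lists only the clock count of higher genes moved by over 1.5 times, to 1.

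Of 135 named genes with a call, 130 kept it in all 6 leave-one-out fits; the others were NYC1, PRR73, NOL, FER1 and LOC_Os10g25290. Signs turned after quantile normalization for NYC1 (-0.06) and NOL (-0.01), and after median centring for NYC1 (-0.21), CRD1 (-0.06), GS2 (-0.26), RBCS3 (-0.14) and FER2 (-0.02). Among genes with no call, AGPL4 (-0.23) ranged from -1.92 to 1.34 over the leave-one-out fits, above 0 without the first early (0.59), the second early (0.63) or the third middle library (1.34). SPS1 ranged from -0.07 to 0.03, BEIIb from -0.63 to 0.02 and GBSSI from -0.06 to 0.78.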

Other observations

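Iron storage genes were raised a little in WFB on day 10 and far more on day 1 and in CHT025, although after median centring neither was called on day 10, at 0.11 for FER1 and -0.02 for FER2. Ferritins hold iron in the chloroplast, and FER1 went from 287 ± 56.7 to 371 ± 48.6 FPKM (0.38 ± 0.14, adjusted p = 0.0162) and FER2 from 723 ± 8.97 to 863 ± 23.7 FPKM (0.26 ± 0.05, adjusted p = 3.34e-05). Without the second early or the second middle library FER1 was not called (0.21 and 0.29). On day 1 the season differences of FER1 and FER2 were 4.63 and 5.19, and in CHT025 on day 10 they were 5.12 and 4.65. The WFB difference on day 10 lay at -4.25 relative to day 1 for FER1 (adjusted p = 3.6e-18) and at -4.94 for FER2 (adjusted p = 5.94e-31). Relative to CHT025 it lay at -4.74 (adjusted p = 5.43e-18) and -4.40 (adjusted p = 2.84e-28). In WFYT025 the differences were 4.05 and 3.82. FER1 (LOC_Os11g01530) and FER2 (LOC_Os12g01530) are close copies, so the division of reads between them is uncertain.

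Calcium sensors, proteins that bind calcium during signalling, held 24 higher and 12 lower of 45 tested genes (17 and 15 after quantile normalization). These shares, 53.3% and 26.7%, were not far from the 47.7% and 20.2% of all tested genes. The same held for NAC factors (55.8% and 17.3%) and MYB factors (47.8% and 22.6%). Proteases (58.1% and 19.4%) and auxin genes (53.8% and 21.5%) were similar. The other family counts here are to be read beside the same shares. The EF hand gene LOC_Os07g43800 rose from 0.58, 0.96 and 1.24 to 19.2, 16.3 and 16.7 FPKM (3.27 ± 0.14, adjusted p = 2.89e-18), so its groups were far apart. NAC factors, a plant family with members in senescence and stress, held 29 higher and 9 lower of 52 tested (22 and 13 after quantile normalization). For MYB factors 55 were higher and 26 lower of 115, for bHLH factors 19 and 9 of 51, and for histones 15 and 10 of 40. After quantile normalization these 3 balances turned, to 34 and 44, 11 and 25, and 10 and 14. The bHLH gene LOC_Os04g23550 fell from 17.1, 14.6 and 15.1 to 2.49, 4.78 and 5.60 FPKM (-1.70 ± 0.25, adjusted p = 8.79e-07), while its day 1 season difference was 8.09. Proteases held 36 higher and 12 lower of 62 tested (24 and 17 after quantile normalization). The aspartic proteinase gene LOC_Os12g39360 rose from 7.24, 6.99 and 6.07 to 56, 51.9 and 56.9 FPKM (2.85 ± 0.09, adjusted p = 3.21e-21). Auxin response and transport genes held 35 higher and 14 lower of 65 tested (27 and 23), and the small auxin-up gene LOC_Os06g45970 rose from 1.22, 1.38 and 0.64 to 14.3, 9.82 and 14.4 FPKM (2.73 ± 0.19, adjusted p = 2.29e-13). Class III peroxidases held 15 higher and 6 lower of 26 (9 and 8), and LEA proteins and dehydrins 3 and 2 of 10. Markers of seed storage and pollen held 15 higher and 2 lower of 51 tested out of 137 listed (12 and 5).

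A pair of genes annotated only as expressed proteins showed large falls, and they were chosen after their values were seen. LOC_Os05g03865 stood at 124, 137 and 119 FPKM in the early and 0.23, 0.30 and 0.37 FPKM in the middle libraries (-6.62 ± 1.15, adjusted p = 8.78e-06). LOC_Os12g37415 stood at 84.3, 98 and 87.2 and 0.25, 0.31 and 0.31 FPKM (-6.13 ± 1.06, adjusted p = 7.86e-06). These standard errors come from the spread within all 12 groups, and they are wide beside the close values of the 6 libraries here. On day 1 the season differences of the pair were 2.31 and 2.01, with the same standard errors of 1.15 and 1.06. Their opposite sign on day 1 is therefore uncertain. The IDs that precede this pair, LOC_Os05g03860 and LOC_Os12g37410, are both annotated as transcripts with a conserved upstream peptide reading frame. On day 10 they moved by 0.87 and 0.66. Whether each pair overlaps on the genome, and so shares reads, was not tested.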
